A study of Mus musculus with 6 samples.

Results

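The CXC chemokine ligands were examined as 10 genes taken by symbol from the 45777 genes of the deposited count table: Cxcl1, Cxcl2, Cxcl3 and Cxcl5, which attract neutrophils, Cxcl9 and Cxcl10, which interferons induce, Cxcl12, Cxcl13 and Cxcl14, which are produced in healthy tissue, and Cxcl16, which is made as a membrane-anchored protein. RNA came from tumors of B16F10 cells, a mouse melanoma line, and 3 tumors grafted in the hind footpad were compared with 3 grafted in the flank skin, at 1 library per tumor. The labels give Foxn1-/- mice aged 8 weeks as hosts of all 6 tumors. Such mice have no functional thymus and few mature T cells but keep neutrophils, macrophages and natural killer cells. The study grafted this line in both Foxn1-null and C57BL/6J mice and its RNA sequencing methods name no host, so the host is given here as the labels have it. The labels say that whole tumors were removed from the graft sites, the methods speak of isolated tumor cells without naming a way to separate them. The study describes grafting these cells at both sites of a mouse at the same time, so footpad and flank skin tumors may have shared mice. It counts the sequenced tumors of a site by mouse. The labels do not say which footpad and flank skin tumors, if any, shared a mouse.

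Chemokines are small secreted proteins that steer white blood cells along a gradient by binding G protein-coupled receptors. The CXC family is named after a pair of cysteines with another residue between them. Members that carry a glutamate-leucine-arginine stretch ahead of these cysteines bind Cxcr2 and draw neutrophils into inflamed tissue, Cxcl9 and Cxcl10 bind Cxcr3 on activated T cells and natural killer cells, Cxcl12 holds cells that carry Cxcr4 in place, and Cxcl13 organizes B cell follicles through Cxcr5. In melanoma and other tumors, neutrophil-attracting members are known from inflamed tissue, Cxcl9 and Cxcl10 from interferon-rich tumors, and Cxcl12 from fibroblasts.

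Libraries held between 46529649 and 66364366 reads on genes. Levels are given as CPM, a gene's reads for every 1000000 of the library after TMM scaling, and values of the 3 tumors of a site always follow the order of replicates 1, 2 and 3. Fold changes are footpad over flank skin on the log2 scale, printed ± the standard error, and an adjusted p is from edgeR unless another tool is named. At this depth 3 reads, taken as the limit of detection, equalled 0.0438 to 0.0673 CPM. Summed melanocyte markers lay between 9802 and 24942 CPM in every tumor, while the 5 T cell markers together lay between 0 and 0.160 CPM, with Cd3d and Cd3g at 0 reads in all tumors. Footpad replicate 2 stood apart in 2 marker groups, with 445 CPM of summed keratinocyte markers and 448 CPM of summed skeletal muscle markers, against at most 22.4 and 55.0 CPM elsewhere. In bulk RNA, fewer cells of a type and less RNA per cell cannot be told apart.

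The neutrophil-attracting ligands and Cxcl12 and Cxcl14 had higher levels on average in footpad tumors, by 2.13 to 3.53 on the log2 scale, whereas the log2 fold change of Cxcl10, by length-scaled level the most abundant member in 5 of the 6 tumors, was -0.68. These averages hid wide differences between tumors of 1 site, and the sites overlapped for most members. Of the 10 genes, 9 had enough reads to be tested, and Cxcl13 did not. A gene was called when edgeR's quasi-likelihood test gave an adjusted p under 0.05 over all 17210 genes tested and the fold change was 2 or more. By this rule 0 of the 9 were called higher, where 2.89% of all genes tested were, and 0 were called lower, where 0.872% of all genes were. An unadjusted p under 0.05 with a higher level in footpad tumors was reached by 4 of 9 (Cxcl1, Cxcl5, Cxcl12 and Cxcl14), against 14.8% of all genes, and no member reached it in the other direction, against 10.5%. DESeq2 called 3 of 9 higher (Cxcl1, Cxcl5 and Cxcl12), against 6.71% of all genes, and 0 lower, against 2.05%. Levels of 3 of the 10 genes did not overlap between the sites, each higher in footpad tumors, against 17.5% of the genes tested, and 0 lay below without overlap, against 14.9%.

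**Figure D1:**
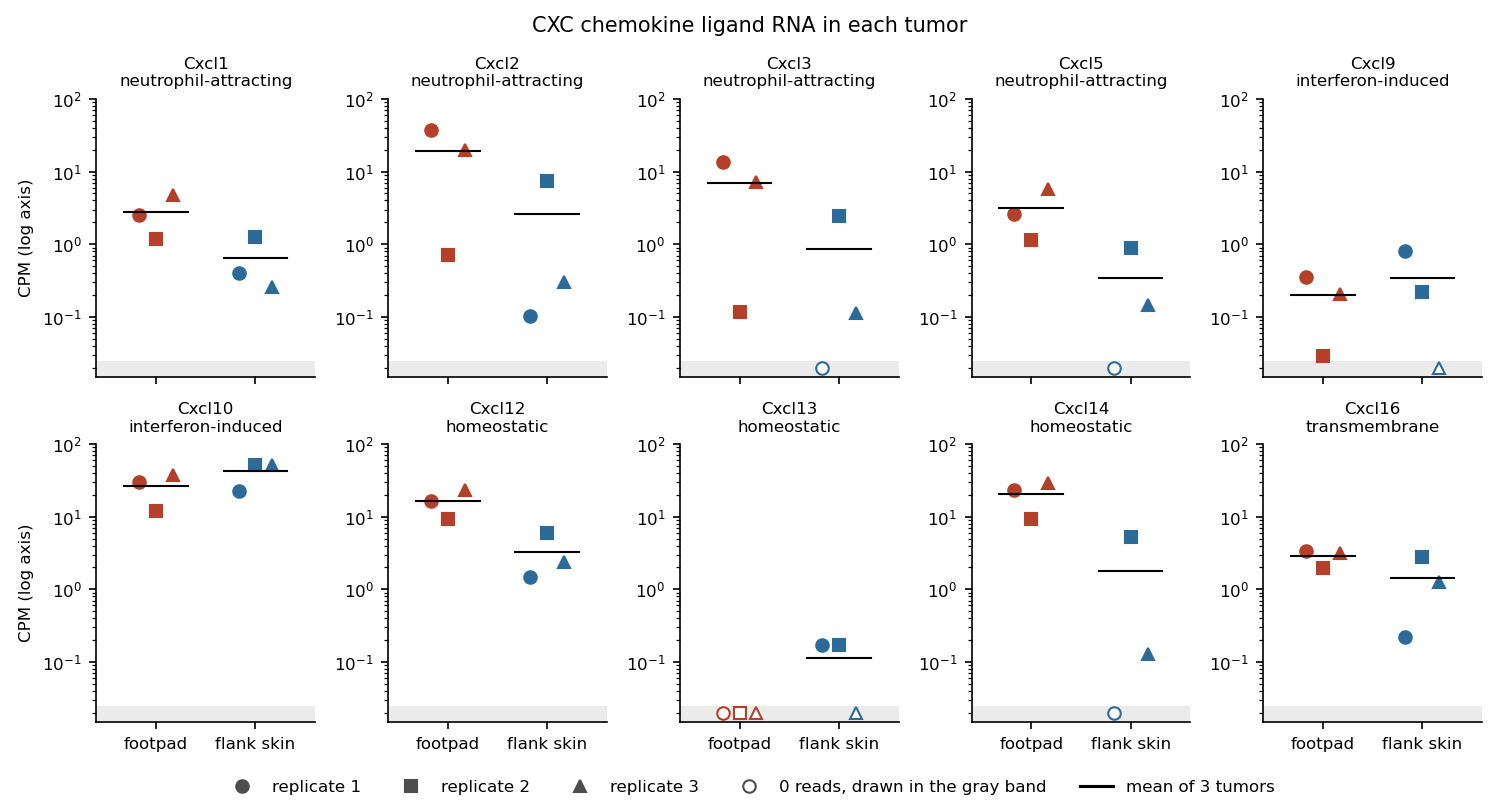
CPM on a log axis for each of the 10 ligands, with a point per tumor, a shape per replicate number and a line at the mean of 3 tumors; open points in the gray band had 0 reads. Footpad replicate 2 is the lowest footpad tumor for all 9 ligands detected there, and flank replicate 2 is the highest flank skin tumor for 8 of 10.

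Cxcl1, Cxcl2, Cxcl3 and Cxcl5 lie close together on chromosome 5 of GRCm38, Cxcl5 from 90759298 to 90761625, Cxcl3 from 90786101 to 90788093, Cxcl1 from 90891245 to 90893121 and Cxcl2 from 90903899 to 90905938. Cytokines such as interleukin-1 and TNF switch these genes on through the transcription factor NF-kB. The bases just before the start of Cxcl1, Cxcl2 and Cxcl3, from RefSeq's promoter table of GRCm38.p6, are shown because the same stretch stands in each of them. Capitals mark matches to the NF-kB consensus on either strand, which overlap here. The windows are chr5:90891135-90891244 for Cxcl1, chr5:90903789-90903898 for Cxcl2 and chr5:90785991-90786100 for Cxcl3, each on the plus strand.
Cxcl1: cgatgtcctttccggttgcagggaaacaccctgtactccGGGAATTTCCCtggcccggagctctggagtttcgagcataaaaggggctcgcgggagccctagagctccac
Cxcl2: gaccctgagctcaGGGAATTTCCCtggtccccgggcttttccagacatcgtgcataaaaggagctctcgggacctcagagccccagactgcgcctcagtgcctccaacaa
Cxcl3: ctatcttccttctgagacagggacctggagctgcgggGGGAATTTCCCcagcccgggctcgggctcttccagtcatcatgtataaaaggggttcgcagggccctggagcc
The match on the plus strand began 71 bases before the start of Cxcl1, 97 before that of Cxcl2 and 73 before that of Cxcl3. Over 32851 promoter windows of 250 bases before a start, 7.25% held this consensus on either strand. The table has 8 of the 10 members, and Cxcl5 and Cxcl16 are not among them.

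Cxcl2 and Cxcl3 varied more within each site, relative to their means, than Cxcl1 and Cxcl5. Cxcl2, a strong neutrophil attractant, gave 1678, 49 and 982 reads in the footpad tumors and 6, 432 and 19 reads in those of the flank skin. Footpad replicate 2 thus lay below flank replicate 2, and the sites overlapped. With means of 19.5 ± 18.5 and 2.60 ± 4.15 CPM (SD, n = 3), its log2 fold change of 2.90 ± 1.64 had an adjusted p of 0.309.

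Cxcl3, a close relative of Cxcl2, reached 13.6, 0.117 and 7.08 CPM in the footpad tumors, while those of the flank skin had 0, 2.43 and 0.112 CPM. It followed the order of Cxcl2 in the footpad tumors, with replicate 1 highest and replicate 2 near the limit of detection, at 8 reads. For Cxcl3 the log2 fold change was 3.03 ± 1.79, with an adjusted p of 0.333. The longest coding transcripts of Cxcl2 and Cxcl3 in GENCODE M21 share an identical run of 110 bases, against at most 23 bases between either of them and Cxcl1, so reads could have been split between this pair, and the counting of such reads is not given in the sources used here.

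Cxcl1, the classical neutrophil attractant of mice that is also called KC, amounted to 2.49, 1.17 and 4.78 CPM in the footpad and to 0.397, 1.27 and 0.256 CPM in the flank skin. Footpad replicate 2 and flank replicate 2 overlapped, and the other footpad tumors lay above every flank skin tumor. A log2 fold change of 2.13 ± 0.74 was fitted for Cxcl1, which missed the threshold in edgeR (adjusted p = 0.128) and passed it in DESeq2 (0.0264).

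Cxcl5, a ligand made by epithelial and stromal cells, had 2.60, 1.15 and 5.70 CPM in the footpad tumors against 0, 0.890 and 0.144 CPM in the flank skin. The sites did not overlap, and footpad replicate 2 with 79 reads was closest to flank replicate 2 with 52 reads. Likewise, its log2 fold change of 3.19 ± 1.24 missed the threshold in edgeR (adjusted p = 0.165) and passed it in DESeq2 (0.0292). Over the 4 neutrophil-attracting genes the median log2 fold change was 2.97, while over all genes tested it was -0.0042. Without flank replicate 2, the fold changes of Cxcl1, Cxcl2, Cxcl3 and Cxcl5 were 3.09, 6.54, 6.86 and 5.38 on the log2 scale, and none had an adjusted p under 0.05 from edgeR. The lowest values were 1.51 for Cxcl1 and 2.44 for Cxcl5 when footpad replicate 3 was left out, and 1.99 for Cxcl2 and 2.08 for Cxcl3 when footpad replicate 1 was.

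Which neutrophil-attracting ligand dominated also differed between tumors. Levels were compared between genes by the deposited FPKM, which the authors scaled for transcript length. The 4 genes summed to 42.9, 2.52 and 30.8 FPKM in the footpad tumors, and in the flank skin their sums were 0.417, 10.7 and 0.655 FPKM. Cxcl2 made up 66.5%, 54.6% and 61.7% of this sum in footpad replicate 1, footpad replicate 3 and flank replicate 2, the 3 tumors with the highest sums. In footpad replicate 2 and flank replicate 1, Cxcl1 was the largest share, at 45.5% and 81.3%. The share in flank replicate 1 rests on 23 reads of Cxcl1 and 6 of Cxcl2. In flank replicate 3, Cxcl2 with 37.4% and Cxcl1 with 36.3% were close.

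**Figure D2:**
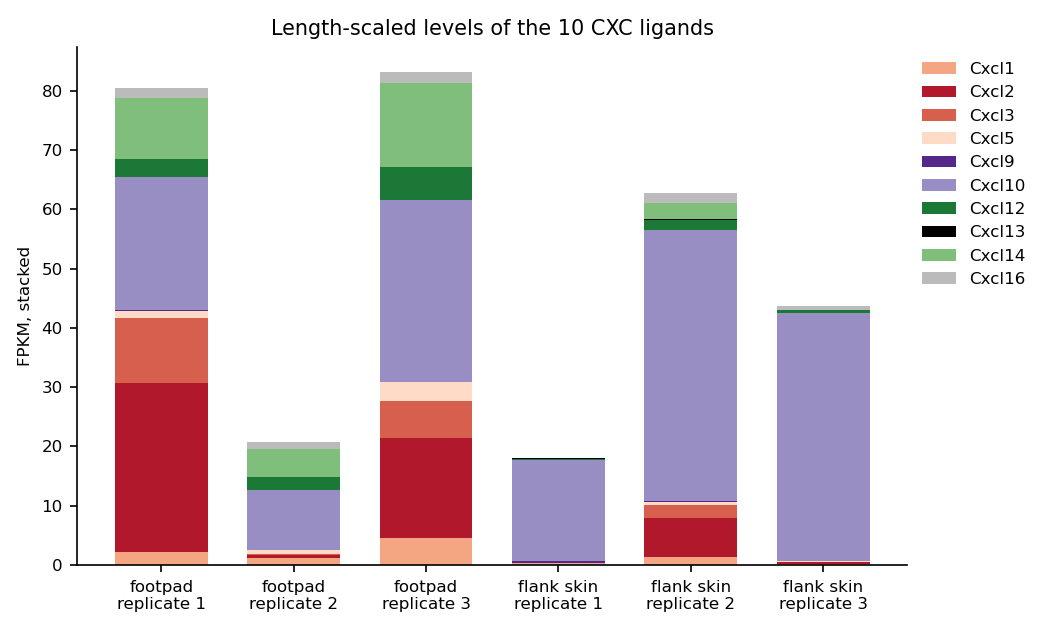
Deposited FPKM of the 10 ligands stacked for each tumor, on a linear axis from 0. Cxcl10 makes up 72.9% to 95.9% of the stack in flank skin tumors and 27.9% to 49.1% in footpad tumors.

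Cxcl10, which interferons and NF-kB both induce and which recruits cells carrying Cxcr3, was the leading member in every flank skin tumor. Footpad tumors contained 30.2, 12.0 and 37.2 CPM of it, and flank skin tumors 22.9, 52.0 and 51.9 CPM. The sites overlapped through flank replicate 1, and footpad replicate 2 was the lowest of all. Cxcl10 had a log2 fold change of -0.68 ± 0.45 (adjusted p = 0.387), which lay between -1.01 and -0.33 over 13 alternative fits. By FPKM, Cxcl10 ranked 1 among the 10 members in 5 of the 6 tumors, and its share of their summed FPKM was 27.9%, 49.1% and 36.9% in the footpad and 94.1%, 72.9% and 95.9% in the flank skin. The gene lies on the minus strand of chromosome 5 from 92346638 to 92348889, inside the span of Art3 on the plus strand, and 133 bases are exonic in both. Art3 had between 2080 and 7035 reads, with a log2 fold change of -0.58 (adjusted p = 0.367), and the strand setting of the counting is not given in the sources used here.

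The window before the start of Cxcl10 is shown because it joins both kinds of site that its regulation is known for. Capitals mark, in order from the 5′ end, the core of the interferon-stimulated response element, which is GAAA, any 2 bases and GAAA, 213 to 204 bases before the start, a match to the NF-kB consensus at 159 to 150 bases and 2 overlapping matches from 104 to 94 bases. The window is chr5:92348890-92349109 on the minus strand of GRCm38.p6.
Cxcl10: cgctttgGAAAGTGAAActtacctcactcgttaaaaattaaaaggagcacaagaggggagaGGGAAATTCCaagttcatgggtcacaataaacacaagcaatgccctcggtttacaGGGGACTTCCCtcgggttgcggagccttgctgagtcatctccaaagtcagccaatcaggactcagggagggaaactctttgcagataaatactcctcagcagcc
The response element core was present in 2.98% of the 32851 windows. Besides Cxcl10, of the 8 members in the table only Cxcl14 held it, at 172 to 163 bases, and only Cxcl14 held the core of the interferon-gamma activated site, which is TTC, any 3 bases and GAA, at 191 to 183 bases, which 7.02% of windows held. For both cores either strand was searched, and a match is a match of letters in these 250 bases and no more.

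**Figure D3:**
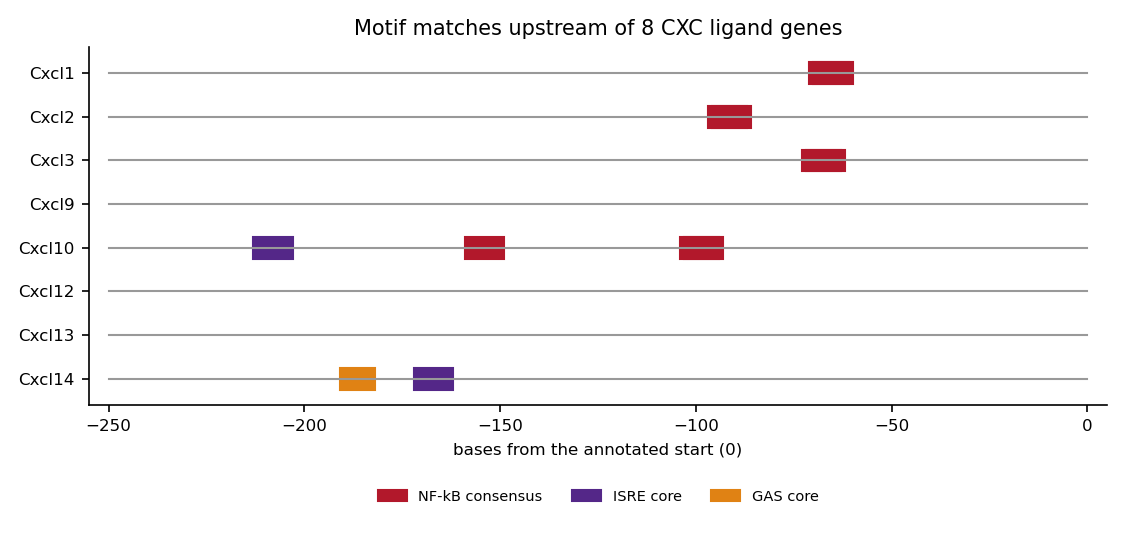
Matches to the NF-kB consensus, the response element core (ISRE) and the interferon-gamma activated site core (GAS) in the 250 bases before the annotated start of the 8 ligand genes in the table, with the distance from the start in bases. Cxcl1, Cxcl2 and Cxcl3 share a match within 97 bases of the start, and Cxcl9, Cxcl12 and Cxcl13 hold no match.

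Cxcl9, which mainly interferon-gamma induces, had few reads. Its reads numbered 16, 2 and 10 in the footpad and 47, 13 and 0 in the flank skin, so flank replicate 1 was highest and flank replicate 3 lowest. A fitted log2 fold change of -0.83 ± 1.34 (adjusted p = 0.733) turned to 0.80 without flank replicate 1. The flank skin tumors thus spanned all the values of the footpad tumors.

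Cxcl12 and Cxcl14, ligands made in healthy tissue without an inflammatory signal, did not overlap between the sites. Cxcl12, also known as SDF-1, a ligand of stromal cells and blood vessels that binds Cxcr4 and Ackr3, lies on chromosome 6 from 117168535 to 117181368. Its levels of 16.7, 9.33 and 23.6 CPM in the footpad tumors compared with 1.50, 5.94 and 2.36 CPM in the flank skin. Every footpad tumor lay above every flank skin tumor, with means of 16.6 ± 7.15 and 3.27 ± 2.35 CPM (SD, n = 3). The fitted log2 fold change was 2.34 ± 0.56, and its adjusted p of 0.0570 missed the threshold. The gene was called by DESeq2 (adjusted p = 1.18e-04), with at least 10 counts required in every tumor (0.0424), without footpad replicate 2 (0.0454) and without flank replicate 2 (0.0330), and its adjusted p ran up to 0.176 over the 13 alternatives. Of all genes tested in those 3 edgeR fits, 3.76%, 3.62% and 2.39% were called higher.

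Cxcl14, a ligand of skin epithelium and fibroblasts, lies on chromosome 13 from 56288643 to 56296811. The footpad tumors expressed it at 23.4, 9.20 and 28.7 CPM, and the flank skin values were 0, 5.18 and 0.128 CPM. The sites did not overlap, and flank replicate 2 with 303 reads held nearly all of the flank skin signal, since flank replicates 1 and 3 had 0 and 8 reads. With all tumors the log2 fold change was 3.53 ± 1.50 (adjusted p = 0.195). Without flank replicate 2 it was 8.23 (adjusted p = 0.0218). Limma called the gene on log2(FPKM + 1), with a change of 2.66 on that scale (adjusted p = 0.0445), and on log2(FPKM + 0.1), where 1.57% and 3.71% of all genes were called higher. Footpad replicate 2, which held the most keratinocyte marker RNA, had the lowest Cxcl14 of the footpad tumors, as it had for all 9 members detected there. The part of keratinocytes in the level of Cxcl14 was not tested.

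Cxcl13, the B cell attractant of lymphoid follicles, had 0 reads in every footpad tumor and 10, 10 and 0 in those of the flank skin. Against the mean 3-read limit of the footpad libraries it was at least 1.99-fold lower in footpad tumors, a bound that rests on the 2 flank skin tumors with 10 reads each, since flank replicate 3 had 0 reads like the footpad tumors. It was not tested because of its low counts. B cell markers were scarce too, with summed levels between 0.176 and 0.793 CPM over all tumors.

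Cxcl16, a membrane-anchored ligand of Cxcr6 that Adam10 sheds, lies on chromosome 11 from 70454389 to 70459984 and overlaps Zmynd15, which had at most 14 reads. Levels of 3.39, 1.95 and 3.21 CPM in the footpad stood beside 0.224, 2.75 and 1.26 CPM in the flank skin. Flank replicate 2 lay among the footpad tumors, and flank replicate 1 was far below the rest. Cxcl16 had a log2 fold change of 1.01 ± 0.75 (adjusted p = 0.432), which became 1.92 without flank replicate 2 and 0.50 without flank replicate 1. For Adam10 itself it was 0.09 (adjusted p = 0.766).

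**Figure D4:**
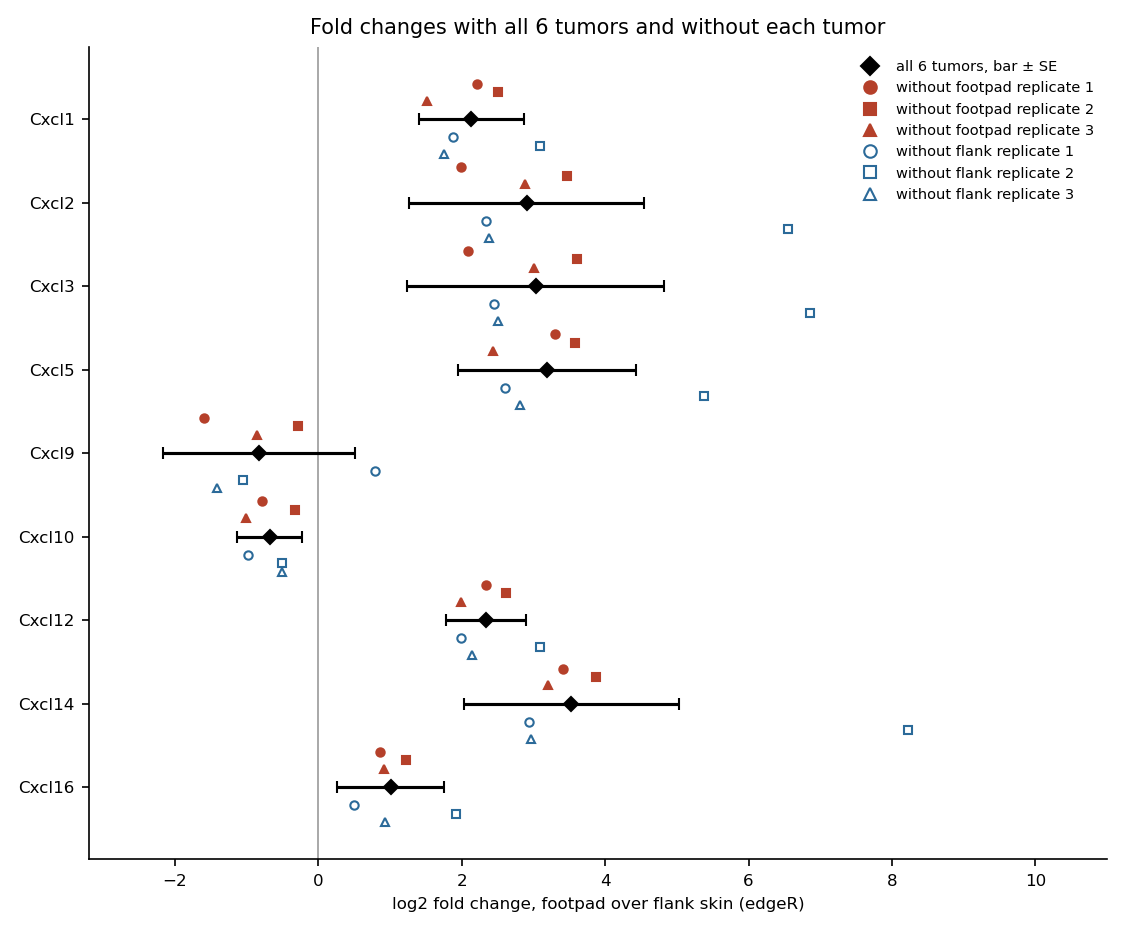
Log2 fold change of footpad over flank skin tumors from edgeR for the 9 ligands tested, with all 6 tumors (diamond, bar ± standard error) and without each tumor in turn. Leaving out flank replicate 2 raises the value of Cxcl14 from 3.53 to 8.23, and Cxcl10 stays below 0 throughout.

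The classes were set against each other within each tumor by subtracting the log2 CPM of Cxcl10, with a prior count of 1, from that of each of the 8 other tested members. For Cxcl12 this difference was -0.86, -0.36 and -0.65 in the footpad and -3.91, -3.13 and -4.45 in the flank skin, so the homeostatic ligand lay nearer to the interferon-induced one in every footpad tumor. For Cxcl14 it was -0.37, -0.38 and -0.37 in the footpad tumors and -10.37, -3.32 and -8.49 in the flank skin tumors. Flank replicate 1 had 0 reads of Cxcl3, Cxcl5 and Cxcl14, so its value of -10.37, the same for each, was set by the prior count. The sizes of the shifts of these genes depend on it. For Cxcl1, Cxcl5 and Cxcl16 the sites did not overlap either, with shifts of 2.94, 4.99 and 2.29 between the means. For Cxcl2 and Cxcl3 they did, with shifts of 4.37 and 4.47 (two-sided exact permutation test, p = 0.2 for each). In CPM alone, Cxcl1 and Cxcl16 overlapped between the sites. All 8 differences share Cxcl10, which averaged 26.4 CPM in footpad and 42.2 CPM in flank skin tumors. The share of all genes without overlap after this subtraction was not computed. The shifts of Cxcl12 and Cxcl14 were 3.21 and 7.02, and all differences without overlap had p = 0.1 by the exact test, the smallest that 3 tumors against 3 allow, and 0.16 after Benjamini-Hochberg adjustment over the 8. In flank replicate 3, Cxcl9 had 0 reads, so its value of -11.66 there was also set by the prior count. For Cxcl9 the shift was 0.81 with p = 0.8 in the exact permutation test. With 3 tumors against 3 this exact test could not reach a p under 0.05 for any of these differences.

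Of the 8 receptor genes, 4 had enough reads to be tested, and 1 was called higher, where 2.89% of all genes tested were. Ackr3, the scavenging receptor of Cxcl12, measured 8.08, 6.65 and 6.82 CPM in footpad and 3.10, 1.95 and 1.42 CPM in flank skin tumors, without overlap. It rose in footpad tumors, by 1.73 ± 0.33 on the log2 scale (adjusted p = 0.0352). It was not called without footpad replicate 1 (adjusted p = 0.123), footpad replicate 3 (0.127), flank replicate 2 (0.0805) or flank replicate 3 (0.105). Cxcr4, the signaling receptor of Cxcl12, differed by 0.89 on that scale (adjusted p = 0.306).

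Cxcr2, the receptor of the neutrophil-attracting ligands, had 15.8, 0.379 and 7.17 CPM in the footpad tumors, in the same order as Cxcl2 and Cxcl3, and 0.845, 1.27 and 0.0799 CPM in the flank skin (log2 fold change 3.41, adjusted p = 0.155). Cxcr3, the receptor of Cxcl9 and Cxcl10, ranged from 1.28 to 3.54 CPM in footpad and from 1.14 to 5.59 CPM in flank skin tumors (log2 fold change -0.55, adjusted p = 0.599). Cxcr1, Cxcr5, Cxcr6 and Ackr1 were at no more than 0.539 CPM in any tumor.

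Among 5 CXC ligand genes outside the 10, 3 were tested and 0 were called by edgeR, with 1 higher and 1 lower at an unadjusted p under 0.05, while DESeq2 called 1 in each direction. Of all genes tested, 14.8% were higher and 10.5% lower at that unadjusted p. DESeq2 called 6.71% higher and 2.05% lower. Cxcl11, the third Cxcr3 ligand, lay lower in every footpad tumor, at 0.359, 0.204 and 0.572 CPM against 1.72, 1.90 and 0.799 CPM (log2 fold change -1.97, adjusted p = 0.0765). Pf4 and Ppbp, both abundant in platelets, had log2 fold changes of 1.31 and 1.35 (adjusted p = 0.144 and 0.427), and Cxcl17 had 0 reads.

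Of 12 genes that induce the neutrophil-attracting ligands or answer the same signals, 11 were tested, and all 11 had a fold change above 0, as 49.7% of all genes tested had. Their median log2 fold change was 0.72, and edgeR called 0 of them, with 4 higher at an unadjusted p under 0.05, against 14.8% of all genes. DESeq2 called 1 of the 11 higher, against 6.71%. Il1b followed the order of Cxcl2 in the footpad tumors, with 33.5, 2.20 and 20.3 CPM there and 0.914, 9.89 and 1.23 CPM in the flank skin (log2 fold change 2.22, adjusted p = 0.266). Tnf had 1.91, 0.321 and 1.57 CPM in the footpad and 0, 0.496 and 0.112 CPM in the flank skin (log2 fold change 2.63, adjusted p = 0.215). Nfkbiz, an NF-kB cofactor, had a log2 fold change of 0.11 (adjusted p = 0.89). Nfkb2, an NF-kB subunit, passed the p threshold without a fold of 2 (log2 fold change 0.72, adjusted p = 0.0399).

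No interferon response gene was called. Of 10 interferon-gamma response genes 8 were tested, 4 with a fold change above 0, and 0 were called by edgeR or DESeq2, with 0 at an unadjusted p under 0.05 and a median log2 fold change of -0.02. Ifng itself had 0 reads in all tumors. Irf1 had a log2 fold change of -0.09. Of 8 type I interferon response genes 7 were tested and 0 were called by either tool, with 1 lower at an unadjusted p under 0.05 and a median log2 fold change of 0.26, and Isg15 varied widely, from 5.02 to 29.2 CPM in footpad and from 5.88 to 41.8 CPM in flank skin tumors. Of 3 processing genes (Dpp4, Adam10 and Adam17) 0 were called by either tool, with 1 lower at an unadjusted p under 0.05 in edgeR, and of 2 tested lymphoid tissue genes 0 were called by either tool, with 1 higher at an unadjusted p under 0.05. At that unadjusted p, 14.8% of all genes tested were higher and 10.5% lower.

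**Figure D5:**
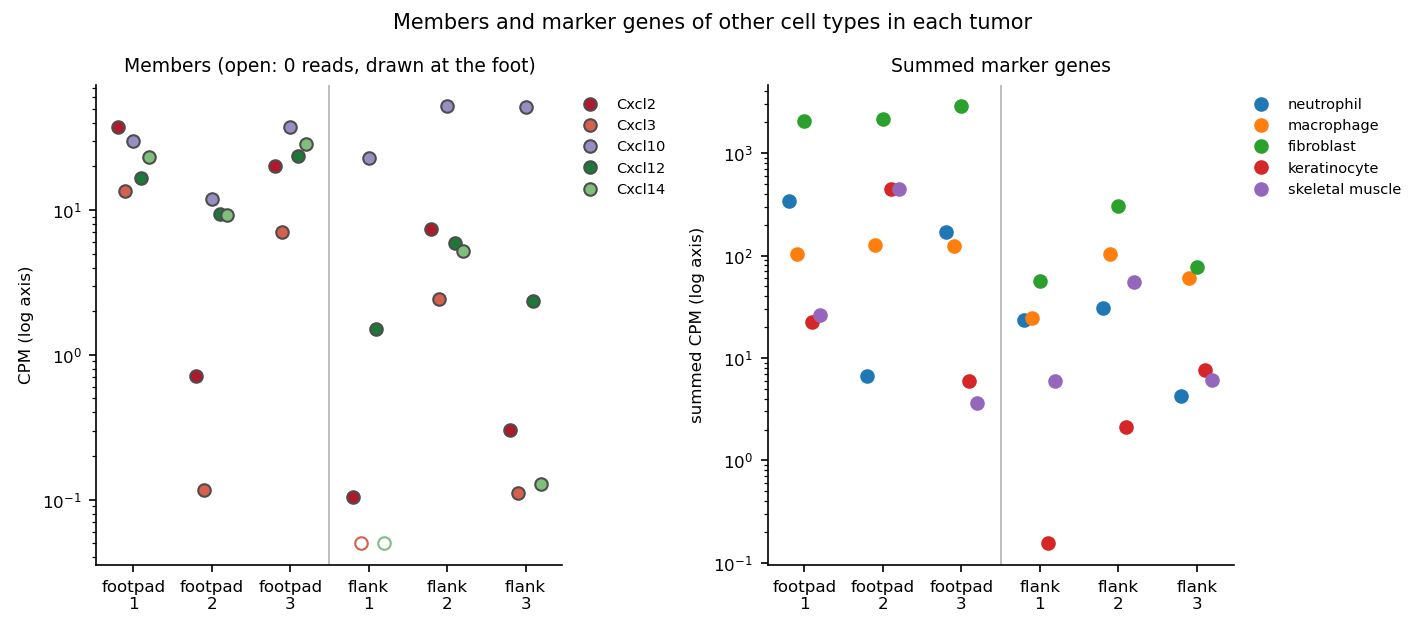
CPM of 5 ligands (left) and summed CPM of marker genes of 5 cell types (right) in each tumor, on log axes, with open points for 0 reads. Cxcl2 and Cxcl3 are lowest of the footpad tumors in replicate 2, as are the summed neutrophil markers, at 6.65 CPM.

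Markers of neutrophils and fibroblasts followed the order of some ligands at 1 site and not at the other. The 10 neutrophil markers summed to 342, 6.65 and 169 CPM in the footpad, against 23.4, 30.5 and 4.28 CPM in the flank skin. Their order in the footpad tumors was that of Cxcl2 and Cxcl3, but in the flank skin replicate 1 had nearly as much marker RNA as replicate 2 and the lowest Cxcl2 and Cxcl3. Of the markers tested, 8 of 8 had a fold change above 0, as 49.7% of all genes tested had. Ly6g and Camp, which were not tested, were at no more than 0.269 and 0.121 CPM. S100a8 and S100a9, an alarmin pair of neutrophils, gave most of the sum. Of the 8, 0 were called by edgeR, with 5 higher at an unadjusted p under 0.05, against 14.8% of all genes. DESeq2 called 1 of them higher, against 6.71%. The 8 fibroblast markers summed to 2066, 2134 and 2863 CPM in the footpad tumors and to 56.8, 304 and 77.7 CPM in the flank skin tumors. Of these, 6 were called higher, against 2.89% of all genes tested, and all 8 lay higher without overlap, against 17.5%. The fibroblast markers called were Col3a1, Col1a1, Dcn, Fap, Lum and Thy1. Of the 12 calls named here for receptors and markers, 0 held without footpad replicate 1, footpad replicate 3 or flank replicate 3. Leaving out flank replicate 1 kept 4 of them, flank replicate 2 kept 8 and footpad replicate 2 kept 12. Flank replicate 2, the highest flank skin tumor for Cxcl12 and Cxcl14, was also the highest for fibroblast markers and, with 104 CPM against 24.5 and 60.3 CPM, for macrophage markers. In the footpad, replicate 2 had the lowest Cxcl12 and Cxcl14 without having the lowest sum of fibroblast markers. The part of these cell types in the levels of the ligands was not tested.

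Other marker groups gave smaller or different patterns. Of 8 macrophage markers 1 was called higher (Cd68, log2 fold change 1.51, adjusted p = 0.0429). Of 6 endothelial markers 2 were called higher (Pecam1 and Emcn), and of 4 pericyte markers 2 were (Pdgfrb and Cspg4). Over all genes tested, 2.89% were called higher. Of the T cell, natural killer cell, B cell, dendritic cell, keratinocyte, skeletal muscle, melanocyte and red blood cell markers edgeR called 0, with 5 of 6 tested keratinocyte markers higher and 1 of 7 melanocyte markers lower at an unadjusted p under 0.05 and 1 keratinocyte marker called by DESeq2. Among all genes, 14.8% were higher and 10.5% lower at that unadjusted p, and DESeq2 called 6.71% higher. Of the T cell and natural killer cell markers, from cells on which Cxcr3 is known to act, 0 of 5 and 0 of 5 had enough reads to be tested. Red blood cell genes summed to 36260, 3952 and 17773 CPM in the footpad and 30913, 3547 and 1925 CPM in the flank skin. In the footpad, blood RNA was lowest in replicate 2, which also had the lowest ligand levels of that site. In the flank skin the order differed. Flank replicate 1 had the most blood RNA and was the lowest of its site for 7 members, while flank replicate 2 was the highest for 8. What part blood RNA had was not tested.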

How the data were processed

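RNA from 3 footpad and 3 flank skin tumors was sequenced from a stranded total RNA library. The authors deposited read counts per gene in 1 table with gene symbols and identifiers. The FPKM used here were deposited separately for each tumor. The submitters' processing notes name FastQC 0.11.7, Trimmomatic and HISAT2 2.1.0, and the counting program and its strand setting are not given in the sources used here. Deposited counts were used as they stand, and FPKM served for levels between genes. Of 45777 genes, 17210 passed edgeR's filterByExpr and were tested with its quasi-likelihood fit (edgeR 4.0.16, limma 3.58.1, R 4.3.3), site being the only term, TMM scaling and Benjamini-Hochberg adjustment over all genes tested. The common biological coefficient of variation was 0.338. Alternatives were DESeq2 1.42.0, other filters and scalings, limma on log2(FPKM + 1) and log2(FPKM + 0.1), a replicate block, other thresholds and leaving out each tumor. Changes in limma are on the log2 scale with the pseudocount, and those on log2(FPKM + 1) understate the change of low genes. Standard errors were taken from the log2 fold change and the F statistic. Tumors of 1 site differed by far more than counting error (chi-square per gene 58.6 to 511), so each counted as 1 sample, and detection limits cover counting error only. Coordinates are those of RefSeq on GRCm38.p6, which matched 45679 genes by identifier, and exon overlaps are from GENCODE M21. The genes named are the members, the genes of 7 pathway lists and 13 marker lists, and, for Cxcl2, Cxcl10 and Cxcl12, the 5 genes with the highest correlation. Members and lists were chosen with earlier results of these data known.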

Additional observations from a re-analysis of the deposited data

How the results depend on the processing

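No member was called by edgeR with all tumors, without a filter on low counts or with upper-quartile scaling. DESeq2 called 3, and 1 was called with at least 10 counts required in every tumor, on log2(FPKM + 1), on log2(FPKM + 0.1) and at an adjusted p under 0.1. Leaving out 1 tumor gave 0 to 2. Fold changes kept their sign, except that of Cxcl9, which ranged from -1.59 when footpad replicate 1 was left out to 0.80 when flank replicate 1 was. Of all genes, 497 were called higher and 150 lower, against 1154 and 352 by DESeq2, 271 and 95 on log2(FPKM + 1), 1012 and 315 at an adjusted p under 0.1, 248 lower with no minimum fold, and 0 to 639 higher and 0 to 197 lower without 1 tumor. Without footpad replicate 3 no gene was called, and without footpad replicate 1 or flank replicate 3 there were 26 and 36 higher. Among pathway list genes, where 1 was called higher and 0 lower, DESeq2 called 3 and 1, both FPKM fits 2 higher, the fit with no minimum fold 2 higher and the adjusted p under 0.1 gave 1 lower, with 0 to 2 higher without 1 tumor. With the replicate number as a block, 0 genes, 0 members and 0 pathway list genes were called. Tumors of the same number did not deviate together (r = 0.0607, -0.0985 and -0.118). Not every tumor correlated best with its own number, so the numbers were not treated as pairs. These correlations concern the replicate numbers only and cannot show that the tumors came from different mice. If tumors shared a mouse, that pairing is not known and was left out of the tests. With CPM per kilobase of GENCODE exons, chosen after seeing the data, in place of FPKM, Cxcl10 again ranked 1 in 5 tumors, with 24.7% to 38.6% of the summed level in footpad and 69.5% to 95.2% in flank skin tumors. By that scaling Cxcl1 no longer clearly led the neutrophil-attracting ligands in footpad replicate 2, with 38.4% of their sum against 38.2% for Cxcl5. A planned scaling by RefSeq lengths was not run, since that table gives genomic spans.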

Other observations

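The genes whose levels followed a ligand most closely were ranked by Pearson's r of log2 CPM across the 6 tumors, given as a description, since all genes share the same 6 libraries. For Cxcl2 these were Tnnt2 (r = 0.999), Il1b (0.996), a gene whose symbol the table holds as a date (0.996), Acd (0.995) and Cxcl3 (0.992). Tnnt2 encodes cardiac troponin T, and Il1b encodes interleukin-1 beta, which is known to induce Cxcl2. For Cxcl10 they were Thumpd2 (0.988), Upf3b (0.985), Sbno1 (0.983), Trmt1 (0.982) and Prokr1 (0.978), with no gene of the interferon lists among the 5. Those lists held only 8 and 7 of the 17210 genes tested, so none was likely among 5 in any case. For Cxcl12 the closest genes were Cda (0.997), Cpne8 (0.997), Erc1 (0.996), Nrep (0.995) and Smoc2 (0.993), a matrix protein of connective tissue. With 6 tumors and 17210 genes, r near 1 is reached by some gene for many patterns, and these ranks were not tested.

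The difference between Cxcl14 and Cxcl10 on the log2 CPM scale was nearly the same in the 3 footpad tumors, at -0.37, -0.38 and -0.37 (SD 0.00495), although Cxcl14 ranged from 9.20 to 28.7 CPM and Cxcl10 from 12.0 to 37.2 CPM among them. In the flank skin tumors the SD of the same difference was 3.65, with the value of flank replicate 1 set by the prior count. In footpad replicate 2 the difference rests on 631 reads of Cxcl14 and 821 of Cxcl10. Counting error at such numbers is larger than the SD of 0.00495, so agreement this close is beyond what the reads can resolve. The pattern in the footpad tumors was noticed after the values were seen and was not tested.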
